A study of Mus musculus with 10 samples.

Results

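The levels of 36 named genes of DNA replication and mitosis were followed through the differentiation of mouse embryonic stem cells. They were chosen by symbol and not by a cut on measured values, though with earlier results of these data known. All 36 were present among the 21937 symbols of the deposited table. Each had at least 5 RPKM (a read level corrected for gene length and library size) in all 10 libraries, so none was lost to a filter on low values. The genes comprised 7 for origin licensing and the replicative helicase, 5 for the replication clamp and nucleotide supply, and 7 cell-cycle regulators. The others were 8 mitotic kinase and spindle checkpoint genes, 2 of the ligase that ends mitosis, and 7 for motors, centromeres and chromosome structure.

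The cells had a C57BL/6 background and were grown in either of 2 cultures, with 1 library for each condition and day. In serum-free SFEB culture, which lets the cells become neuroectoderm, the conditions were wild type (WT), Tet3 knockout (KO) and Tet3 KO with Dkk, each on days 6 and 10. In the other culture, whose medium with FBS (fetal bovine serum) does not permit neural differentiation, the conditions were control (CTL) and Tet3-overexpressing cells, on days 4 and 7. Tet3 is an enzyme that oxidises 5-methylcytosine in DNA; Dkk is a secreted inhibitor of Wnt signalling. The knockout cells came from mice with floxed Tet3 alleles, and Cre was expressed transiently to remove the floxed exon; how many clones were used, and how Tet3 was overexpressed or Dkk given, is not given in the sources used here. Whether samples came from separate cultures is not stated either, so p-values measure only the spread between these libraries, which may be technical. With 1 library for each condition and day, an effect of a condition that differs between the days also counts as spread. Tet3 RPKM was 8.11 and 10.2 in WT on days 6 and 10, 6.59 and 14.3 in KO, and 7.64 and 13.1 in KO with Dkk; a whole-gene value does not test the loss of 1 exon. In FBS culture it was 0.96 and 5.87 in the control and 12.5 and 14.1 in the overexpressing cells on days 4 and 7.

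A cell copies its DNA once per cycle. In G1, Cdc6 helps to load the MCM helicase onto replication origins; cyclin E with its kinase partner, and E2F factors, then drive entry into S phase, where the PCNA clamp tethers polymerases and ribonucleotide reductase makes deoxynucleotides. Cyclin B with Cdk1 starts mitosis, the aurora and polo-like kinases and the spindle checkpoint oversee it, and the ligase activated by Cdc20 ends it. Many of these genes are transcribed mainly in cycling cells, and neurons leave the cycle when they form. In a bulk sample, fewer cycling cells and less RNA of these genes per cell cannot be told apart.

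The promoters of such genes are known for short elements bound by E2F factors, by NF-Y (CCAAT boxes) and by the DREAM and MYB complexes (CHR elements). RefSeq promoters (GRCm38.p6, 250 bases before to 50 after each start; the expression files use mm9) were matched for 32 of the 36 genes. No entry was matched for Mcm4, Ccna2, Foxm1 and Aurkb. Only the 250 bases before each start were searched, on both strands. The letters were CCAAT, the CHR letters TTTGAA or TTCGAA, and the E2F letters TTCCCGC or TTGGCGC or TTCGCGC or TTGCCGC. Matches to the first and last kind can overlap by shared letters. A CCAAT box was present in 25 of the 32 genes (78.1%) and in 33.8% of all 32851 promoters. A gene counted if any of its matched promoters held the letters, while the share over all counts each promoter singly, so these shares differ in unit. CHR letters were present in 10 (31.2%, against 17.1% of all promoters), and each of these 10 also had a CCAAT box (6.0% of all promoters had both). E2F letters were present in 9 (28.1%, against 7.9%), namely in 6 of 11 replication genes, 1 of 16 mitosis genes and 2 of 5 regulators. The 150 bases upstream of the start are printed for 7 genes, with the matched letters in capitals. Mcm5 and Mcm6 had among the largest falls described below, Cdc20 and Top2a show the mitotic pairing of CCAAT and CHR letters, and Cdk1 holds all 3 kinds. Ube2c and E2f1 are shown because they did not pass the test over time.
Mcm5 promoter, chr8:75109359-75109508, forward strand: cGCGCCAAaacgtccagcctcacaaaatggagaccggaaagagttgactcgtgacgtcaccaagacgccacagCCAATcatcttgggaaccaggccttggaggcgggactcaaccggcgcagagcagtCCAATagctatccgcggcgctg
Mcm6 promoter, chr1:128359706-128359855, reverse strand: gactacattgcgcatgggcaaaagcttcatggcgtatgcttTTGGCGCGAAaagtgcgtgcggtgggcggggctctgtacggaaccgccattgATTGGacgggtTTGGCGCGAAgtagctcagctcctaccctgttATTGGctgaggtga
Cdc20 promoter, chr4:118437344-118437493, reverse strand: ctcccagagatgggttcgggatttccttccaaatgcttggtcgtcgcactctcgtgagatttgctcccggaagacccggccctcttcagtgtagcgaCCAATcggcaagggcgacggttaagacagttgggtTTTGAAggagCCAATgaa
Top2a promoter, chr11:99024190-99024339, reverse strand: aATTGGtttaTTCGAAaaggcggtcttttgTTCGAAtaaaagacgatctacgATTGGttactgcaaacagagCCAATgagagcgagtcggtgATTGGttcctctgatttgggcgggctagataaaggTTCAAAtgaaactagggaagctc
Cdk1 promoter, chr10:69352913-69353062, reverse strand: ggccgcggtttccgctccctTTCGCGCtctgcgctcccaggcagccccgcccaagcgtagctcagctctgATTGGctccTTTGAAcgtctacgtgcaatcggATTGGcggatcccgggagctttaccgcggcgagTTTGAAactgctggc
Ube2c promoter, chr2:164769779-164769928, forward strand: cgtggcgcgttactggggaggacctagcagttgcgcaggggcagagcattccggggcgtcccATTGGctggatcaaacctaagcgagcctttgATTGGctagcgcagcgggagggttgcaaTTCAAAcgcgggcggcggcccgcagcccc
E2f1 promoter, chr2:154569427-154569576, reverse strand: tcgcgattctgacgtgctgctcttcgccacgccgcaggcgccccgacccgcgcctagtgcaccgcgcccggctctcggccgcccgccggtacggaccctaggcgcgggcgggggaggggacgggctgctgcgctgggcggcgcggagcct
The E2f1 stretch held none of these letters, but it precedes 1 matched start only. Whether that is the main start of E2f1 was not checked, so the stretch does not show that the gene lacks them. Ube2c held CCAAT and CHR letters as Cdc20 did. A match of letters is a description of the sequence and does not show that a factor was bound.

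Together the 36 genes held 0.865% to 0.987% of all RPKM per library on day 6 of SFEB culture and 0.398% to 0.575% on day 10. In FBS culture they held 0.709% to 0.72% in 3 libraries and 0.525% in control day 7. The level was highest in WT day 6 for 16 genes, in Tet3-overexpressing day 4 for 9 and in control day 4 for 4. It was lowest in KO day 10 for 29. How often all genes had their extremes in these libraries was not counted over the 10, so the numbers describe the 36 only. Mcm5 varied most, 6.28-fold between its highest library (Tet3-overexpressing day 4, 278 RPKM) and its lowest (KO day 10, 44.3 RPKM), and Ube2c least, 1.59-fold. Pcna, the replication clamp, was the most abundant of the 36 in all 10 libraries, between 229 and 577 RPKM. The level of each gene relative to its own median is drawn in the map of 36 genes by 10 libraries.

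**Figure D1:**
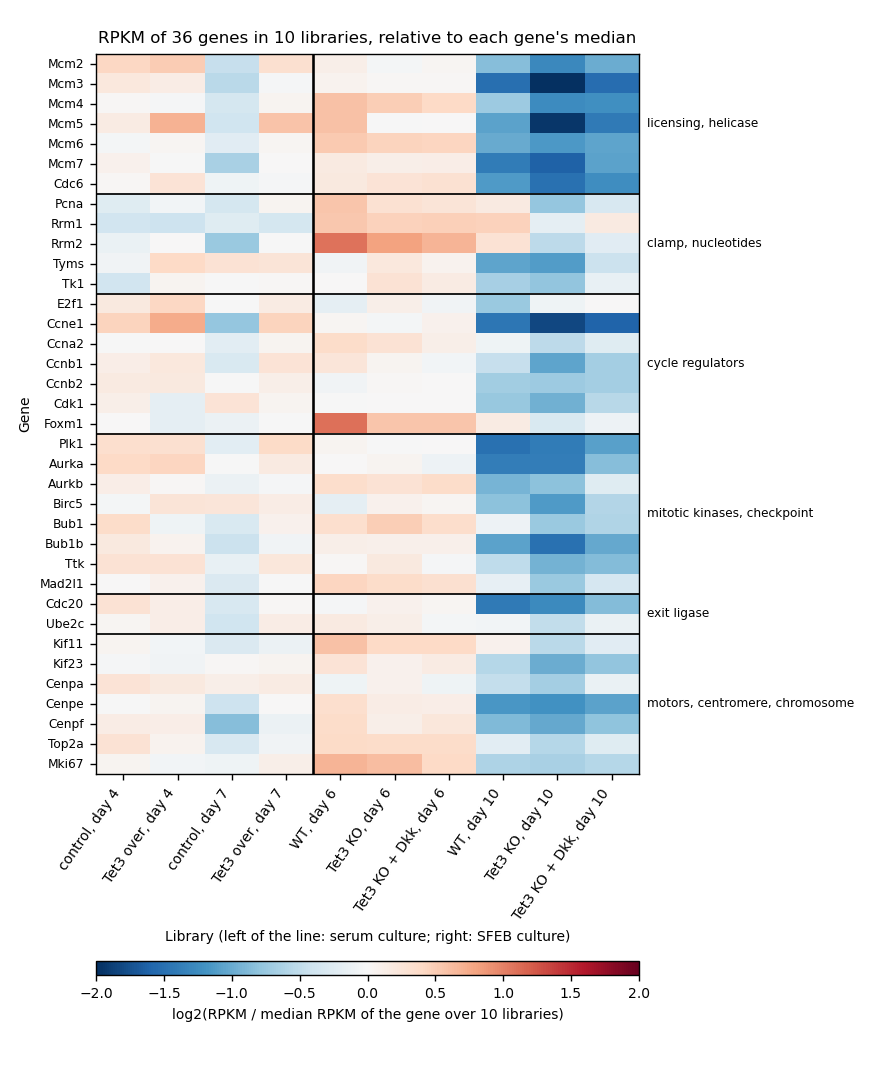
Level of each of the 36 genes (rows, grouped by role) in each of the 10 libraries (columns), as log2 of the RPKM over the gene's median RPKM in the 10 libraries; blue is below and red above that median, and the vertical line divides serum (FBS) from SFEB culture. The 3 SFEB day 10 columns are blue for nearly all genes, and control day 7 is the bluest column of the FBS culture, the lowest of its 4 libraries for 29 genes.

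The libraries carried the markers of their cultures. The summed RPKM of 6 pluripotency genes was 1042 to 1442 in 3 FBS libraries and 252 in the fourth, control day 7, against 51.4 to 119.8 in SFEB culture. Control day 7 stood apart in other markers too: 6 endothelial and embryonic blood genes summed to 6257 RPKM there, and to 16.8 to 27.0 in the other FBS libraries. The 10 neuronal genes summed to 117 to 229.9 RPKM on day 6 of SFEB culture and 1893 to 2209 on day 10. In FBS culture they summed to 154 and 256 in control and overexpressing day 4, and to 35.8 and 213 on day 7. This list therefore did not separate the cultures on day 6. The 5 neural progenitor genes summed to 170.5 to 306.5 RPKM on day 6 of SFEB culture and 12.5 to 35.9 in FBS culture. On day 10 of SFEB culture they summed to 788 to 934 RPKM, of which Fabp7 held 624 to 759. Sox1, of the same list, was lower on day 10 than on day 6 in each condition. Depth, estimated from the spacing of low values, was 10200000 to 11300000 reads in 5 SFEB libraries, 37100000 in KO with Dkk day 10, and 17400000 to 43500000 in FBS culture.

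Between day 6 and day 10 of SFEB culture the replication and mitosis genes fell together. Of the 36, 32 were lower on day 10 and none was higher, where 16.4% of the 13757 genes tested were lower and 27% higher. The test was limma on log2(RPKM + 0.5) in 1 additive model of condition and day, in which the conditions serve as repeats for the effect of the day, with Benjamini-Hochberg adjustment over all genes and a threshold of 0.05. The median difference of the 36 was -0.92 on that log2 scale, and that of all genes 0.11. For 34 of the 36, every day 10 library lay below every day 6 library, as did 22.7% of the 12912 genes compared in SFEB culture; the other 2 were Rrm1 and E2f1. Of the 10 neuronal marker genes, 9 or 10 were at 1 RPKM or more in each day 6 library and all on day 10. Their summed level rose as given above, as did that of the 5 neural progenitor genes. The part of either rise in the result was not tested.

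All 7 licensing and helicase genes were lower on day 10, and their median difference (-1.53) was the furthest below 0 of the 6 role groups. Mcm3, a helicase subunit, was at 205, 199 and 199.6 RPKM on day 6 in WT, KO and KO with Dkk, and at 68.8, 48.8 and 68.3 RPKM on day 10. Its log2 difference was -1.71 (SE 0.18; limma, Benjamini-Hochberg adjusted p = 0.00205). The days did not overlap, and KO was the lowest of the day 10 libraries. Mcm5 was at 257, 171 and 172 RPKM on day 6 and 81.6, 44.3 and 64.6 on day 10 in the same order. Its difference was -1.66 (SE 0.17; limma, Benjamini-Hochberg adjusted p = 0.00182). Mcm6 fell by a like amount in every condition, from 221, 209 and 207 RPKM to 76.4, 69.6 and 74.4 RPKM. Its difference of -1.53 had the smallest adjusted p of the 36 (SE 0.12; limma, Benjamini-Hochberg adjusted p = 0.00107). Mcm4 and Mcm7 differed by -1.55 and -1.51, and Mcm2 by -1.08, less than Plk1, Cenpe and others described below. Cdc6, which loads the helicase, was at 22.8, 24.3 and 24.6 RPKM on day 6 and 9.15, 7.14 and 8.44 on day 10, a difference of -1.49 (SE 0.14).

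In the clamp and nucleotide group, 4 of 5 genes were lower on day 10 (median -0.68). Rrm2, the ribonucleotide reductase subunit whose level is tied to S phase, was at 409.6, 338 and 309 RPKM on day 6 in WT, KO and KO with Dkk and at 236, 135 and 166 on day 10. Its difference was -1.01 (SE 0.18; limma, Benjamini-Hochberg adjusted p = 0.00911). Rrm1, the other subunit of the enzyme, did not pass the test: it was at 122, 114.5 and 116 RPKM on day 6 and 115, 74.1 and 94.2 on day 10 (difference -0.34, SE 0.15; limma, Benjamini-Hochberg adjusted p = 0.123). WT on day 10 lay within the day 6 values for Rrm1. Pcna was at 577, 485 and 469.7 RPKM on day 6 and 447, 229 and 314 on day 10, with WT the highest on both days (difference -0.68, SE 0.18; limma, Benjamini-Hochberg adjusted p = 0.0271). The thymidylate enzymes Tyms and Tk1 differed by -0.90 and -0.67.

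Of the 7 regulators, 6 were lower on day 10 (median -0.75). Ccne1, cyclin E1, was at 72.9, 69.0 and 75.0 RPKM on day 6 in WT, KO and KO with Dkk and at 26.1, 20.1 and 23.3 on day 10. Its difference was -1.63 (SE 0.20; limma, Benjamini-Hochberg adjusted p = 0.00315), the only regulator beyond -1. E2f1, a transcription factor of S-phase entry, was at 15.2, 18.8 and 16.5 RPKM on day 6 and 10.3, 16.2 and 17.4 on day 10. The days overlapped, and the difference of -0.22 did not pass (SE 0.16; limma, Benjamini-Hochberg adjusted p = 0.299). Cdk1, the mitotic kinase, fell from 65.7, 66.3 and 66.0 RPKM to 38.9, 33.8 and 45.0 RPKM. Its partners Ccnb1, Ccnb2 and Ccna2 differed by -0.81, -0.68 and -0.54, and Foxm1, a transcription factor of late-cycle genes, by -0.80.

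All 8 mitotic kinase and checkpoint genes were lower on day 10 (median -0.92). Plk1, polo-like kinase 1, was at 87.8, 83.8 and 84.8 RPKM on day 6 in WT, KO and KO with Dkk and at 30.1, 31.8 and 39.9 on day 10. Its difference was -1.33 (SE 0.17; limma, Benjamini-Hochberg adjusted p = 0.00349). Bub1b, a checkpoint protein at kinetochores, was at 72.4 to 72.6 RPKM in the 3 day 6 libraries and at 32.1, 24.0 and 33.2 on day 10 (difference -1.28, SE 0.17). Aurka and Aurkb, the aurora kinases, differed by -1.18 and -0.99, and Mad2l1, a checkpoint protein, had the smallest difference of the 8, -0.78.

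Of the 2 genes of the exit ligase, 1 was lower on day 10. Cdc20, its activator, was at 150.7, 162 and 157 RPKM on day 6 in WT, KO and KO with Dkk and at 57.3, 63.4 and 83.6 on day 10 (difference -1.21, SE 0.17; limma, Benjamini-Hochberg adjusted p = 0.00431). Ube2c, the ubiquitin-conjugating enzyme that works with the ligase, was at 155, 149 and 134 RPKM on day 6 and at 132, 97.6 and 124 on day 10. Its difference of -0.32 did not pass (SE 0.17; limma, Benjamini-Hochberg adjusted p = 0.175). Whether the 2 genes differed from each other was not tested.

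Of the 7 motor, centromere and chromosome genes, 6 were lower on day 10 (median -0.94). Cenpe, a kinetochore motor, was at 24.3, 21.2 and 21.1 RPKM on day 6 in WT, KO and KO with Dkk and at 8.57, 8.26 and 9.19 on day 10 (difference -1.31, SE 0.14; limma, Benjamini-Hochberg adjusted p = 0.00216). Mki67, which encodes the proliferation antigen Ki-67, was at 30.8, 29.6 and 25.5 RPKM on day 6 and at 12.6, 12.4 and 12.9 on day 10 (difference -1.14, SE 0.14). Top2a, the topoisomerase that disentangles chromosomes, was at 203 to 206 RPKM on day 6 and at 137, 106 and 134 on day 10 (difference -0.71, SE 0.16). Cenpa, the centromeric histone H3 variant, did not pass: it was at 77.3 to 87.2 RPKM on day 6 and at 59.3, 51.3 and 74.8 on day 10 (difference -0.40, SE 0.17; limma, Benjamini-Hochberg adjusted p = 0.110).

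The count of 32 rested on all 6 SFEB libraries. It was 18 without KO day 6 or without KO day 10, 20 without KO with Dkk day 6, 21 without KO with Dkk day 10, and 26 without either WT library, while over all genes those called lower dropped from 2262 to between 915 and 1095. The same 18 genes were called in every one of these fits: the 6 MCM genes, Cdc6, Ccne1, Foxm1, Plk1, Aurka, Aurkb, Bub1b, Cdc20, Cenpe, Cenpf, Kif23 and Mki67. Centring each library on the median of the genes compared moved the median of all genes from 0.11 to -0.12 and the split of all calls from 3721 higher and 2262 lower to 2704 higher and 3451 lower. Under it 34 of the 36 were called lower, with a median of -1.15.

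Taken one condition at a time, with 1 library against 1 and therefore no test, the fall was seen in each. In WT the median was -0.87, and 27 genes were lower by 1.5-fold or more (19.1% of all genes compared were) and 15 by 2-fold or more (7.98%). In KO the median was -1.16, with 35 genes lower by 1.5-fold (17.6%) and 26 by 2-fold (8.01%). In KO with Dkk it was -0.79, with 27 lower by 1.5-fold (16.5%) and 11 by 2-fold (6.81%). The largest fall was that of Mcm3 in KO, -2.02, and the sole value above 0 was that of E2f1 in KO with Dkk, 0.08. Whether the conditions differed in their change over time could not be tested with these libraries.

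**Figure D2:**
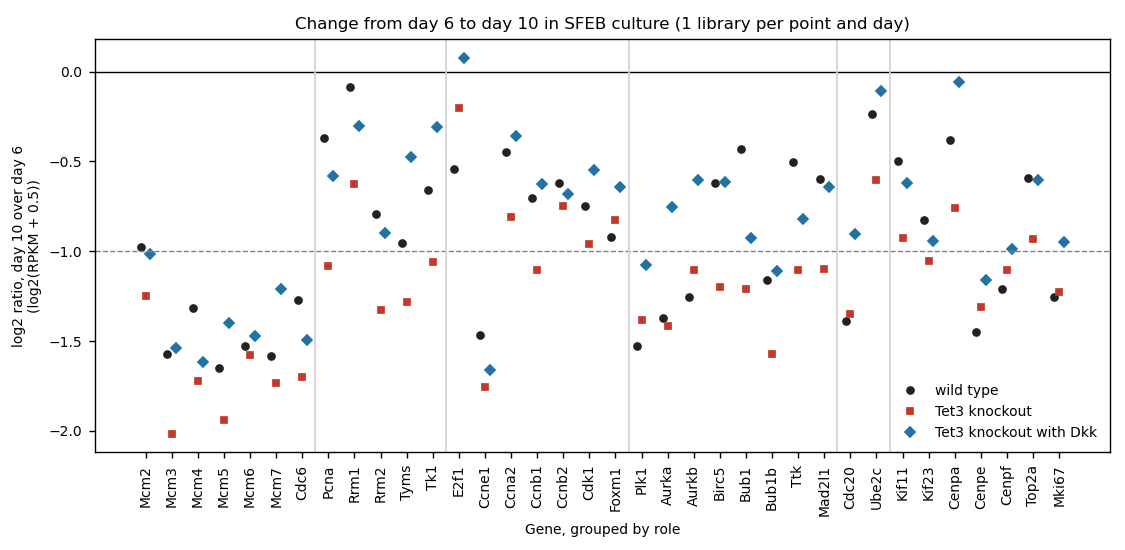
Change from day 6 to day 10 of SFEB culture for each of the 36 genes (x axis, grouped by role; 1 point per condition), as the log2 ratio of RPKM + 0.5; the dashed line marks a 2-fold fall. All points but 1 (E2f1 in KO with Dkk, 0.08) lie below 0, and the lowest means are those of Mcm3 to Mcm7, Cdc6 and Ccne1.

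Genes of the same processes outside the 36 were mostly lower as well. Of 35 other replication genes, 32 were lower on day 10 in the same limma fit and none higher (median -1.01), among them Mcm10 (mean of the 3 ratios -1.94), Uhrf1 (-1.79), which maintains DNA methylation behind the fork, and Cdt1 (-1.73), the licensing partner of Cdc6. Of 40 other mitosis genes, 28 were lower and 1, Racgap1, higher (median -0.77); Espl1, which encodes separase, fell by 1.61 and Kif20a by 1.44. Of 10 genes for G1 cyclins, their kinases and Myc proteins, 5 were lower (Cdc25a, Cdk2, Cdk6, Myc and Mycn) and none higher. The D-type cyclins, which act before cyclin E, did not pass. Ccnd3 was at 29.8 to 45.8 RPKM on day 6 and 16.9 to 29.4 on day 10, without overlap (difference -0.69, SE 0.31; limma, Benjamini-Hochberg adjusted p = 0.129). Ccnd1 was at 93.8 to 119.6 RPKM on day 6 and 108 to 140.1 on day 10, and Ccnd2 at 76.4 to 152 and 66.1 to 117.

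Among 17 E2F, retinoblastoma and MYB regulators the genes went both ways, with 7 lower and 5 higher, where 16.4% of all genes tested were lower and 27% higher; 5 of 17 higher is near that background. Mybl2, a MYB factor of late-cycle transcription, was at 32.7 to 34.6 RPKM on day 6 and 11.2 to 15.5 on day 10, and fell by 1.33 (SE 0.22; limma, Benjamini-Hochberg adjusted p = 0.00703). Rbl2, the retinoblastoma-family member p130 of resting cells, was at 1.02 to 2.02 RPKM on day 6 and 5.16 to 8.35 on day 10, and rose by 1.98 (SE 0.22; limma, Benjamini-Hochberg adjusted p = 0.00237). Rb1 also rose, from 5.76 to 9.08 RPKM to 13.1 to 20.5 RPKM. Of 13 CDK inhibitors and other antiproliferative genes, 6 rose and 1, Ccng1, fell, against the same shares of all genes. The inhibitor Cdkn1b (p27) was at 14.1 to 20.9 RPKM on day 6 and 32.4 to 57.5 on day 10, a rise of 1.35 (SE 0.16; limma, Benjamini-Hochberg adjusted p = 0.00282). Ccng2, an atypical cyclin of cells leaving the cycle, rose by 2.44, from 8.38 to 10.5 RPKM to 51.3 to 54.6 RPKM. Cdkn1c (p57) was higher on day 10 in all 3 conditions, but its spread was wide (difference 1.97, SE 0.70; limma, Benjamini-Hochberg adjusted p = 0.0694).

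The comparison of KO with WT asks what the loss of Tet3 changed in the neural culture. In the fit over both days none of the 36 genes passed in either direction; limma with Benjamini-Hochberg adjustment called 0.08% of all genes higher and 0.00727% lower. At an unadjusted p under 0.05, 3 of the 36 were lower, Mcm5 (-0.73, SE 0.20), Pcna (-0.61, SE 0.22) and Foxm1 (-0.50, SE 0.17), and none was higher; of all genes 5.02% were lower and 8.79% higher at that mark. Without WT day 10 or without KO day 10 none of the 36 reached it, and without WT day 6 1 was lower and 1 higher. The knockout was a separate line, so genotype and line cannot be told apart.

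The days gave different pictures, and in the fit over both days such a difference counts as spread. On day 6 the median of the 36 was -0.06 and that of all genes 0.00; only Mcm5 was lower by 1.5-fold or more (7.77% of all genes were), and none was higher (9.6%). The number lower was 0 with a pseudocount of 1 and 2 after rescaling to TPM. On day 10 the median was -0.36 against 0.06 for all genes, and 31 of the 36 lay below 0, as did 44.6% of all genes. Of the 36, 6 were lower by 1.5-fold or more (7.38% of all genes) and 1 higher (17.9%). KO day 10 was the lowest of the 6 SFEB libraries for 31 genes, against 13.2% of all genes. For the other 5, E2f1, Plk1, Aurka, Aurkb and Cdc20, it was WT day 10. Every day 10 library lay below every day 6 library for 34 of the 36 and for 22.7% of all genes. The fall over time therefore enters the contrast of 31 genes with 13.2%. All 12 replication genes were below WT on day 10, and 13 of the 17 mitosis genes. The change in the difference between the days was not tested.

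The genes furthest below WT in the mean of both days were Mcm5, Pcna and Rrm2. Mcm5 was at 257 RPKM in WT and 171 in KO on day 6, and at 81.6 and 44.3 on day 10 (log2 ratios -0.59 and -0.87). Pcna was at 577 and 485 RPKM on day 6 and at 447 and 229 on day 10 (-0.25 and -0.96). Rrm2 was at 409.6 and 338 RPKM on day 6 and at 236 and 135 on day 10 (-0.28 and -0.81). Each was lower in KO on both days, and for Pcna and Rrm2 most of the gap was on day 10. Rrm1, Bub1 and Kif11 were the other 3 lower by 1.5-fold or more on day 10. On the other side, E2f1 was at 15.2 RPKM in WT and 18.8 in KO on day 6, and at 10.3 and 16.2 on day 10 (0.29 and 0.63). Cdc20, at 57.3 and 63.4 RPKM on day 10 (0.14), and Tyms, at 8.46 and 8.14 (-0.05), were the other 2 highest in the mean of both days; their counting intervals on each day include 0. On values centred on the library median 10 genes were lower by 1.5-fold or more on day 10 and E2f1 no longer passed that mark.

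Of the inhibitors, Cdkn1c alone was higher by 2-fold or more on both days. It was at 40.3 RPKM in WT and 87.4 in KO on day 6 and at 130 and 317 on day 10. Cdkn1b was lower in KO on both days, at 20.9 RPKM in WT and 15.2 in KO and then at 57.5 and 32.4. Of the 12 inhibitors and antiproliferative genes compared, 8 were above WT on day 10 and 4 below. Markers of other tissues differed between the same libraries on day 10. The summed RPKM of 7 fibroblast and matrix genes was 42.3 in WT, 622 in KO and 61.3 in KO with Dkk, with none at 0. That of 6 cardiac genes was 4.96, 124 and 60.9, with Nkx2-5 listed at 0 in WT and 0.60 or less in the others. On day 6 the fibroblast list was at 5.39, 14.9 and 6.01 and the cardiac list at 3.24, 18.8 and 3.91. The part of these markers in the lower day 10 levels was not tested. The 10 neuronal markers summed to 2060, 1893 and 2209 RPKM on day 10 in the same order.

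The Dkk comparison asks whether inhibiting Wnt signalling alters the knockout. It shares the KO libraries with the comparison of KO with WT, so a high or low KO value enters both with opposite sign. Over both days the median limma difference of the 36 was 0.16 for Dkk and -0.19 for KO against WT. Without KO day 10 these medians were -0.03 and -0.03, and without KO day 6 they were 0.32 and -0.33. Without KO with Dkk day 10 the Dkk median was 0.03. In the fit over both days none of the 36 passed, and none had an unadjusted p under 0.05 (1.81% of all genes were higher and 3.95% lower at that mark); limma with Benjamini-Hochberg adjustment called 0.0145% of all genes higher and 0.0291% lower. On day 6 the ratios of the 36 ran from -0.21 to 0.12 (median -0.01), and none of the 36 was 1.5-fold higher (5.79% of all genes were) or lower (6.94%). On day 10 all 36 lay above KO, as did 48.6% of all genes, with a median of 0.32 against -0.01 for all genes. By 1.5-fold or more, 2 genes, Tyms and Tk1, were higher (4.39% of all genes) and none lower (10.1%). The number higher depended on the scale: it was 0 after rescaling to TPM and 7 after centring.

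Tk1, thymidine kinase, was at 26.6 RPKM in KO and 41.5 in KO with Dkk on day 10, and Tyms, thymidylate synthase, at 8.14 and 13.1. The Tyms value in KO rested on about 59 reads by the depth estimate, and its counting interval ran from 0.28 to 1.11. Aurkb, Mcm7 and Mcm5 were highest in the mean of both days. Aurkb, the kinase of the chromosome passenger complex, was at 62.4 and 65.6 RPKM on day 6 and at 28.7 and 43.1 on day 10 (0.07 and 0.58). Mcm7 was at 320.3 and 326 RPKM and then at 96.0 and 140.3 (0.02 and 0.54). Lowest in that mean were Mki67, Ttk and E2f1, all slightly below KO on day 6 and slightly above it on day 10. The order of the day 10 libraries was KO, KO with Dkk, WT from the lowest for 20 genes, including Pcna, Rrm2 and 5 of the MCM genes. It was KO, WT, KO with Dkk for 11 genes, including Mcm7, Cdk1 and Mki67. For the 5 named above it was WT, KO, KO with Dkk. The share of all genes with each order was not counted, so these numbers describe the replication and mitosis genes only. Whether they depart from all genes was not tested. KO with Dkk day 10 was also the deepest SFEB library, and 5 endoderm genes summed to 169 RPKM in it (of which Ttr 155), 45.9 in KO and 48.7 in WT, with none at 0; the part of either in the result was not tested.

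**Figure D3:**
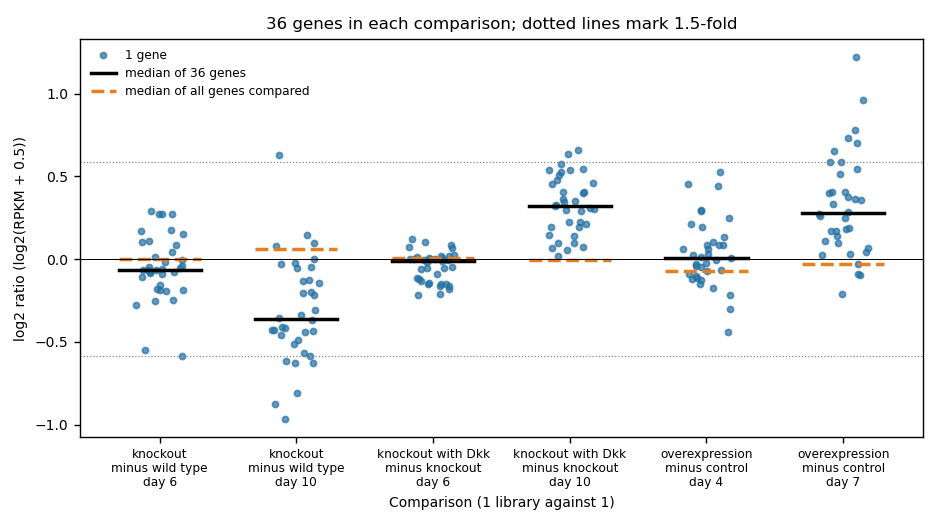
Log2 ratio of RPKM + 0.5 for each of the 36 genes (1 point per gene) in 6 comparisons of 1 library with 1 (x axis); black bars are the medians of the 36, dashed orange bars those of all genes compared, and dotted lines mark 1.5-fold. The points spread around 0 at the earlier day of each pair, and lie mostly below 0 for KO minus WT on day 10 (31 of 36), above 0 for Dkk on day 10 (36 of 36) and above 0 for overexpression on day 7 (32 of 36).

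In FBS culture, control day 7 was the lowest of the 4 for 29 of the 36 genes, as it was for 37.7% of all genes compared. In the control the median change from day 4 to day 7 was -0.36, and 10 genes were lower by 1.5-fold or more (18.2% of all genes were); in the overexpressing cells it was -0.04, with no gene lower by that much (4.3%). Limma with Benjamini-Hochberg adjustment called none of the 36 for the day over both conditions (0.109% of all genes higher and 0% lower). At an unadjusted p under 0.05, 2 were lower, Ccne1 (-0.76) and Cenpf (-0.60), and none higher, against 6.45% and 10.3% of all genes. The median difference of the 36 was -0.36 without either overexpressing library and -0.04 without either control library. At an adjusted p under 0.05, 1 gene, Ccne1, was lower without overexpressing day 4 (2.68% of all genes were) or without overexpressing day 7 (2.4%). In those fits the day effect (-1.22 for Ccne1) compares 1 control library with 1, and the spread comes from the SFEB libraries.

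The comparison of Tet3-overexpressing with control cells asks what added Tet3 changed where neural fate is not permitted. Over both days none of the 36 passed (limma with Benjamini-Hochberg adjustment; 0.0145% of all genes were called higher and 0.00727% lower). At an unadjusted p under 0.05, 2 were higher, Ccne1 (0.76, SE 0.25) and Mcm5 (0.75, SE 0.20), and none lower, against 6.85% and 11.1% of all genes. The median difference of the 36 was 0.17 over both days. It was 0.01 without control day 7 or overexpressing day 7, and 0.28 without control day 4 or overexpressing day 4. Such a fit compares 1 overexpressing library with 1 control library, and the spread comes from the SFEB libraries. On day 4 the median was 0.01 against -0.07 for all genes, and none of the 36 differed by 1.5-fold (5.84% of all genes were higher and 10.7% lower); after centring 1 was higher. On day 7 the median was 0.28 against -0.03, and 32 of the 36 lay above 0, as did 47.8% of all genes. On that day 8 were higher by 1.5-fold or more (16.2% of all genes were) and none lower (20.6%). Centred values gave medians of 0.13 on day 4 and 0.43 on day 7.

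Ccne1 differed most. It was at 97.0 RPKM in the control and 119 in the overexpressing cells on day 4, and at 41.3 and 96.8 on day 7, so that the low value was control day 7 alone (log2 ratios 0.29 and 1.22). Mcm5 was at 193 and 278 RPKM on day 4 and at 130.0 and 254 on day 7 (0.53 and 0.96), and was higher in the overexpressing cells on both days. Rrm2 was at 178 and 195 RPKM on day 4 and at 116 and 193 on day 7 (0.13 and 0.73). The others higher by 1.5-fold or more on day 7 were Mcm2, Mcm7, Cenpf, Ccnb1 and Plk1. Cdk1 was the lowest in the mean of both days, at 71.7 and 58.1 RPKM on day 4 and 79.2 and 68.3 on day 7 (-0.30 and -0.21). It was followed by Rrm1 and Bub1, and Bub1 was lower on day 4 (-0.44) and higher on day 7 (0.37).

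Other regulators set control day 7 apart as well. Mybl2 was at 207 and 286 RPKM in control and overexpressing cells on day 4 and at 72.0 and 203 on day 7. Cdkn1c was at 15.4 and 19.9 RPKM on day 4, 262 in control day 7 and 21.0 in the overexpressing cells on day 7. In that library the embryonic globins Hbb-bh1 and Hba-x were at 4230 and 1922 RPKM, and at 5.15 RPKM or less in the other FBS libraries. Its 7 fibroblast and matrix genes summed to 348 RPKM (32.6 to 78.6 in the others, where Lum was listed at 0 in overexpressing day 7), its 6 cardiac genes to 89.3 (4.24 to 16.5) and its 5 endoderm genes to 162 (0.97 to 25.1, where Afp was listed at 0 in overexpressing day 4). Of the fibroblast and matrix genes, Thy1 went the other way, at 2.64 RPKM in control day 7 and 10.44 to 15.95 in the others. Dcn, at 0.70 RPKM, lay within the range of the others (0.52 to 1.49). The part of these markers in the lower levels of control day 7 was not tested.

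**Figure D4:**
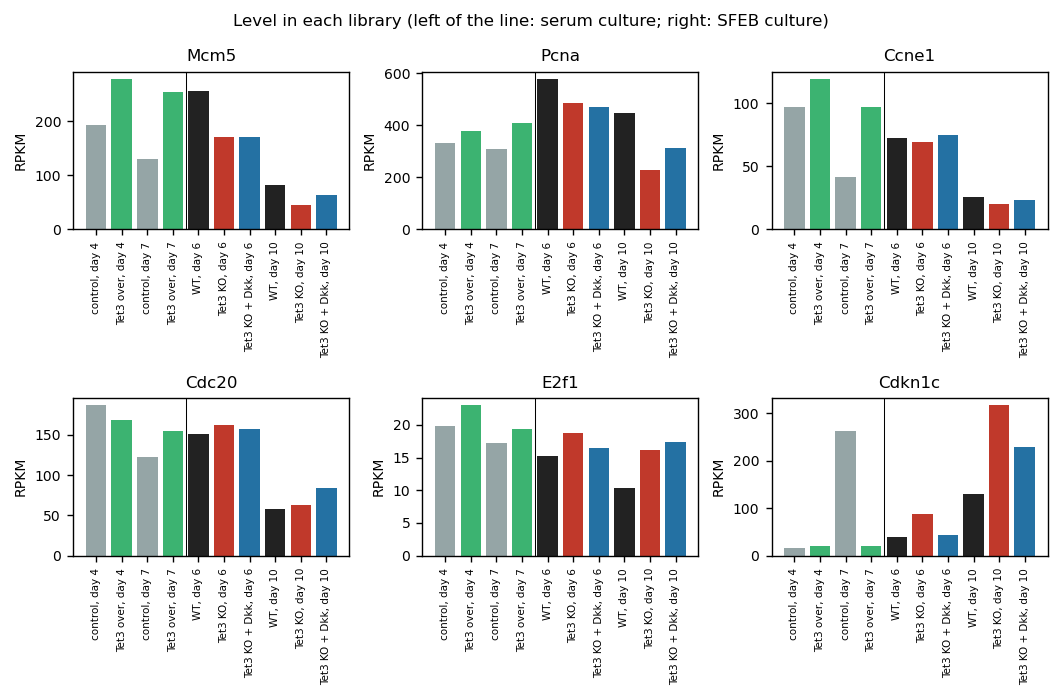
RPKM (y axis, from 0) of 5 of the 36 genes and of the inhibitor Cdkn1c in each of the 10 libraries (1 bar per library; FBS culture left of the line, SFEB right). Mcm5, Ccne1 and Cdc20 are lowest in the 3 SFEB day 10 bars, E2f1 lies between 10.3 and 23.0, and Cdkn1c is highest in KO day 10 and in control day 7.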

How the data were processed

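Total RNA of 10 mouse embryonic stem cell cultures was sequenced as SOLiD Total RNA-seq libraries on a SOLiD platform, per the labels' protocols. The authors deposited 1 table of RPKM values per gene symbol; HTSeq and mm9 are named in the submitters' processing notes. Nothing used here names the aligner or annotation, or says how strand and multiply matching reads were handled, so genes with near-identical copies or antisense neighbours are uncertain. No counts were used. Depth was estimated from the steps between low RPKM values (54.5% to 71.9% of these lay within 0.15 of a whole read), and 95% Clopper-Pearson intervals of single ratios rest on it and cover counting error only; their median half-width was 0.08 to 0.18 on the log2 scale.

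Values were tested as log2(RPKM + 0.5) with limma 3.58.1 (R 4.3.3) on the 13757 genes that reached 1 RPKM in any library, with terms for culture, day within culture, KO, Dkk and overexpression (3 residual degrees of freedom) and Benjamini-Hochberg adjustment. The fit was tested on simulated data. A fold change on this scale understates that of low genes. Single comparisons used genes that reached 1 RPKM in the culture (12912 in SFEB, 12387 in FBS). The 36 genes and the other lists (115 further genes, and markers) were chosen with earlier results of these data known. Genes named beside each comparison were the 3 highest and 3 lowest of the 36 by the mean of its ratios, those past the test or fold mark, and up to 4 of each other list that changed by 2-fold in every condition; others were named after their values were seen. Alternatives covered the pseudocount, the filter, rescaling, centring, the libraries fitted and the variance trend.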

Additional observations from a re-analysis of the deposited data

How the results depend on the processing

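No called value changed direction under any alternative tried. The median limma difference of the 36 for Dkk, where no gene was called, went from 0.16 to -0.03 without KO day 10. The number of the 36 genes called lower on day 10 of SFEB culture ranged from 18 to 32 when each of the 10 libraries was left out in turn, with fewer samples in each fit, and the number called lower on the later FBS day from 0 to 1. The other limma counts at an adjusted p under 0.05 did not move under any pseudocount, filter, rescaling, culture-only fit or variance trend, beyond 34 lower on day 10 after centring and 31 after rescaling to TPM. At an unadjusted p under 0.05 the same alternatives gave 3 to 5 genes lower and 0 to 1 higher in KO, 1 to 3 higher with overexpression, and 0 to 5 lower on the later FBS day. Among the comparisons of 1 library with 1, a pseudocount of 1 left 0 genes lower by 1.5-fold in KO on day 6 and rescaling to TPM left 2, against 1. Rescaling left 0 genes higher with Dkk on day 10 and centring 7, against 2. Centring gave 0 higher and 10 lower in KO on day 10, and 1 higher with overexpression on day 4, where the median became 0.13; on day 7 it became 0.43. The medians over time became -1.05 in WT, -1.43 in KO, -0.99 in KO with Dkk and -0.44 in the FBS control. The cause of these shifts was not tested. Of the single-gene values, 2335 kept their side of the 1.5-fold mark, 28 crossed to beyond it and 13 fell within it. No paired analysis was possible because each condition and day has 1 library and the replicate numbers are only names. With 1 library per condition and day, no single-day difference has a replicate check, and depth limits the lowest genes: the smallest estimated count among the 36 was 52 reads, in KO day 10.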
